A study of Mus musculus with 4 samples.

Results

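The distribution of histone H3 lysine 9 trimethylation (H3K9me3) was set against that of histone H3 lysine 27 trimethylation (H3K27me3) in mouse embryonic fibroblasts (MEF), in windows of 100 kb along the 19 autosomes. Each mark was measured by chromatin immunoprecipitation with sequencing in 1 library, and both libraries came from the same flow cell. A window was kept where at least 15 of its 20 bins of 5 kb held a read with a single genome location in any of the 4 libraries of the series, which left 23382 of 23881 windows. The level of a mark is its fold over the library's own mean window, from reads counted 1 time per position and strand, and the ratio is the H3K9me3 fold divided by the H3K27me3 fold. Coordinates are those of mouse build mm8. A gene annotation on that build was not used here, so windows are named by position and the labelled cell type was not checked against marker genes.

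The MEF were cultured in serum-containing DMEM without any stated treatment, and the labels used here give no genotype, strain or embryo age for them. The marks were pulled down with different antibodies of the same vendor, and a single lot served MEF and secondary MEF H3K9me3. Immunoprecipitations from MEF for H3K4me3, and from secondary MEF for H3K9me3, took no part in the ratio and serve below as separate readouts. The secondary MEF were taken at 13.5 days post coitum from chimeric embryos made with induced pluripotent stem cells. Expression of Klf4, Sox2 and Oct4 can be induced with doxycycline in these cells, which also carry an Oct4-selectable cassette. The host blastocysts were BDF2, and fibroblasts that descend from the stem cells were selected by 48 hours of puromycin at 2 µg/ml. Their library came from another flow cell, so the cell source and the flow cell cannot be told apart. With 1 library in each group nothing below has a replicate check, and all intervals cover counting error only.

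H3K27me3 is written by Polycomb repressive complex 2 and marks silenced developmental genes, often as broad domains whose make-up differs between cell types. H3K9me3 is written by enzymes of the SUV39H and SETDB1 families, is bound by heterochromatin protein 1, and marks pericentromeric repeats, transposable elements and some gene clusters in most cell types. H3K4me3 marks active and poised promoters.

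The libraries held 8533453 (H3K9me3) and 8963279 (H3K27me3) distinct autosomal positions, or a mean of 364 and 382 in a window. The H3K4me3 and secondary MEF libraries held 10989113 and 7678116. A bin was termed high in all 4 libraries when it reached 5-fold in each. There were 62 such bins, in 43 windows. By the call defined below, 22 of these windows had H3K27me3 above and 4 had H3K9me3 above, against 4.22% and 14.2% of all windows. The highest was the first window of chromosome 11 (3000001 to 3100000), at 26.6-fold H3K9me3, 14.2-fold H3K27me3, 10.7-fold H3K4me3 and 29.6-fold secondary MEF H3K9me3.

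At this scale the 2 marks ran together rather than apart. Across windows the log2 folds had a Pearson correlation of 0.96 (a description over 23382 windows that share sequence coverage within each library). All 4 libraries shared much of this level: MEF H3K9me3 had a correlation of 0.94 with secondary MEF H3K9me3 and of 0.84 with H3K4me3, and H3K27me3 had 0.81 with H3K4me3. What part of the 0.96 is particular to the 2 marks was not tested. Both marks stood at 1.5-fold or more in 3890 windows and both at 0.5-fold or less in 6165. Windows with one mark raised and the other below its mean were few. Only 66 had H3K9me3 at 1.5-fold or more with H3K27me3 under 1-fold, and 10 had the reverse. All but 4 of the 919 windows with H3K27me3 at 3-fold or more had H3K9me3 at 1.5-fold or more.

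The marks differed in their range. The middle 80% of windows spanned 0.311-fold to 1.84-fold for H3K9me3 and 0.204-fold to 2.07-fold for H3K27me3, with SDs of 1.0 and 1.31 on the log2 scale. A least-squares line through the log2 folds had a slope of 0.732. The ratio therefore followed the level itself: over windows with H3K27me3 under 0.25-fold the pooled ratio was 1.67 (95% interval 1.66 to 1.68), between 1-fold and 1.5-fold it was 1.09, and at 5-fold or more it was 0.487 (0.484 to 0.489). H3K9me3 still stood higher where H3K27me3 was higher, with medians of 0.291-fold, 1.32-fold and 2.81-fold in those 3 classes. Since the H3K27me3 reads also define these classes, this is a description of the ratio.

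**Figure D1:**
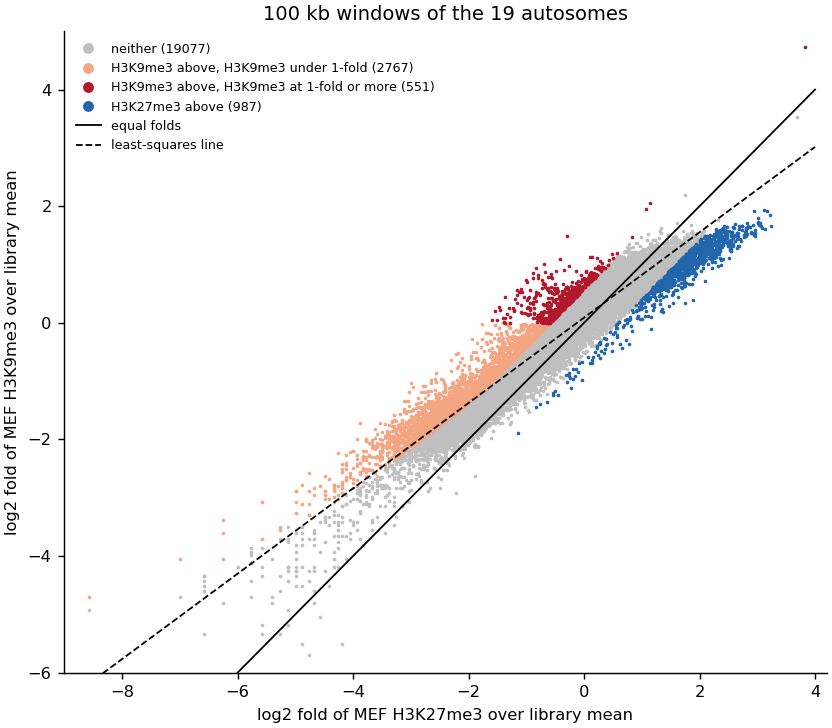
Each point is a 100 kb window, with the log2 fold of MEF H3K27me3 on the x axis and of MEF H3K9me3 on the y axis; colours give the call, the solid line marks equal folds and the dashed line is the least-squares line. The cloud is tilted against the line of equal folds with a slope of 0.732, so windows with H3K9me3 above lie mostly at the low end and windows with H3K27me3 above at the high end.

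A window was called where the ratio reached 1.5, or 1/1.5 in the reverse direction, with an exact Clopper-Pearson interval, allowing 0.1% error, that excluded 1. H3K9me3 was above H3K27me3 in 3318 windows (14.2%), and H3K27me3 above H3K9me3 in 987 (4.22%). The split depends on the scaling. Scaled by the library's median window in place of its mean, 1071 windows had H3K9me3 above and 2343 had H3K27me3 above, so H3K9me3 made up 31.4% of the calls against 77.1%. All 1071 were among the 3318, and all 987 were among the 2343. The order of windows by ratio is the same under both scalings by construction, and only the point at which the marks count as equal moves.

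Most windows with H3K9me3 above held little of either mark. Of the 3318, 2767 (11.8% of all windows) had H3K9me3 below its mean, with medians of 0.401-fold H3K9me3, 0.22-fold H3K27me3 and 0.132-fold H3K4me3. Secondary MEF H3K9me3 stood at 0.486-fold there. The other 551 windows (2.36%) had H3K9me3 at 1-fold or more, a division made after seeing the data. Their medians were 1.32-fold H3K9me3, 0.759-fold H3K27me3 and 0.676-fold H3K4me3, and H3K27me3 was under 1-fold in 473 of them. Windows with H3K27me3 above had high folds of both marks, at medians of 3.52-fold H3K27me3 and 2.05-fold H3K9me3. By this call the H3K9me3 fold itself was thus higher in these windows than in those where it exceeded H3K27me3. This order turns when windows are called by the same fold against the least-squares line, a choice made after seeing the data: median H3K9me3 was then 1.36-fold in 360 windows above the line and 0.709-fold in 305 below it, with H3K27me3 at 0.627-fold and 1.13-fold.

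Secondary MEF H3K9me3, which the calls did not use, was lower in the low windows, as MEF H3K9me3 was, but did not follow it between the 551 windows with H3K9me3 above at 1-fold or more and the 987 with H3K27me3 above. Its median was 1.61-fold in the 551 windows with H3K9me3 above and 1.61-fold in the 987 windows with H3K27me3 above, where MEF H3K9me3 differed (1.32-fold and 2.05-fold). It exceeded the MEF H3K9me3 fold in 435 of the 551 windows (78.9%) and in 85 of the 987 (8.61%), against 52.6% of all windows. The low windows with H3K9me3 above were like the 551, at 2274 of 2767 (82.2%), and so were windows of that low level without a call: between 0.25-fold and 0.5-fold H3K9me3 the secondary MEF fold was the higher in 76.1% of 3667. The pooled ratio of secondary to MEF H3K9me3 was 1.22 (1.21 to 1.22) in the first class and 0.796 (0.794 to 0.799) in the second, and 1.21 in the low windows. Without chromosome 12, on which the secondary library has raised coverage (a mean of 1.34-fold against 0.921-fold in MEF), the share was 78.4% in the first class and 5.81% in the second. MEF H3K9me3 reads enter both the call and the ratio to secondary MEF, so these values are not independent of the call, while the secondary MEF fold itself is.

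The same order held among windows of like MEF H3K9me3 level. Between 1.5-fold and 2-fold H3K9me3 there were 128 windows with H3K9me3 above, 2912 called in neither direction and 281 with H3K27me3 above. Secondary MEF H3K9me3 had medians of 2.00-fold (quartiles 1.78 to 2.33), 1.61-fold (1.41 to 1.85) and 1.41-fold (1.26 to 1.6) in them. The H3K27me3 medians there were 1.01-fold, 1.71-fold and 3.01-fold. Between 1-fold and 1.5-fold H3K9me3 the secondary medians were 1.46-fold, 1.18-fold and 1.11-fold in 407, 5147 and 105 windows. The quartile ranges of neighbouring classes overlap at both levels, so the order is one of class medians and not of single windows.

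**Figure D2:**
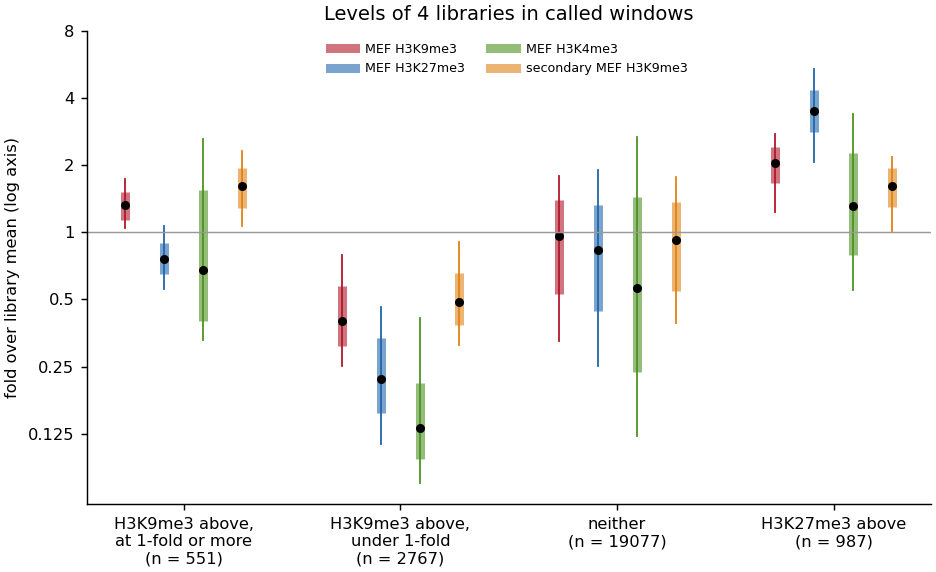
The x axis gives 4 classes of windows and the log y axis the fold over the library mean in 4 libraries; points are medians, thick bars the quartiles and thin lines the 10th to 90th percentiles over windows. Secondary MEF H3K9me3 has the same median, 1.61-fold, in the first and last class, while MEF H3K9me3 is at 1.32-fold and 2.05-fold.

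H3K4me3 differed between the classes, but not in the same order among windows of like MEF H3K9me3 level. Between 1.5-fold and 2-fold H3K9me3, median H3K4me3 was 1.08-fold with H3K9me3 above, 1.47-fold in neither direction and 1.08-fold with H3K27me3 above. Between 1-fold and 1.5-fold H3K9me3 these medians were 0.621-fold, 0.96-fold and 0.873-fold. The shares that follow are over whole classes, which also differ in H3K9me3 level. At least 1 bin at 2-fold H3K4me3 lay in 86.4% of the windows with H3K27me3 above, in 47.4% of the 551 with H3K9me3 above and in 7.01% of the 2767 low ones, against 43.3% of all windows. The 551 windows split by it. The 290 without such a bin had medians of 1.26-fold H3K9me3, 0.672-fold H3K27me3 and 1.67-fold secondary MEF H3K9me3, and 168 of them lay in runs of 300 kb or more. The 261 with such a bin had 1.37-fold, 0.85-fold and 1.56-fold, and 33 lay in such runs.

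Within windows, H3K27me3 was the more uneven mark, with little difference between the marks where H3K9me3 was above. Over windows with all 20 bins covered and no bin high in all 4 libraries, the bin-to-bin coefficient of variation net of counting error was 0.343 for H3K27me3 and 0.337 for H3K9me3 in windows with H3K9me3 above at 1-fold or more. In windows called in neither direction it was 0.563 for H3K27me3 and 0.326 for H3K9me3. In windows with H3K27me3 above it was 0.794 for H3K27me3 and 0.405 for H3K9me3, and the 2 highest of 20 bins held 27.8% of the H3K27me3 reads against 18.7% of the H3K9me3 reads.

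Called windows formed runs. The log2 ratio of neighbouring windows had a correlation of 0.59, which was 0.21 at 1000 kb and 0.01 at 5000 kb, a description over 23168 to 21889 pairs. Windows with H3K9me3 above formed 1847 runs, of which 1219 were a single window, 303 reached 300 kb and 16 reached 1 Mb. The 733 runs with H3K27me3 above were shorter: 557 were a single window, 56 reached 300 kb and none exceeded 600 kb. Fewer windows were called in this direction, 4.22% against 14.2%. What part of the difference in length comes from these shares was not tested, and runs were not recomputed with scaling by the median, which turns the split. The longest run with H3K9me3 above covered 2200 kb of chromosome 1 (117200001 to 119400000) and held 3145 H3K9me3, 1528 H3K27me3, 1189 H3K4me3 and 3566 secondary MEF H3K9me3 positions. These are low levels, 0.393-fold, 0.182-fold, 0.115-fold and 0.495-fold, at a ratio of 2.16 (2.03 to 2.30). The next, 1700 kb of chromosome 1 from 102200001, was alike at 0.337-fold and 0.163-fold. On chromosome 8 from 15400001, 1600 kb stood at 0.599-fold H3K9me3 and 0.339-fold H3K27me3, and on chromosome 5 from 26400001, 1500 kb stood at 0.818-fold and 0.371-fold.

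A smaller group of runs, listed after seeing the data, had H3K9me3 at 1-fold or more on average. There were 344 such runs with H3K9me3 above. Of these, 265 were a single window and 36 reached 300 kb. Among windows with H3K9me3 above at 1-fold or more, 201 lay in runs of 300 kb or more. Their medians were 0.664-fold H3K27me3 and 0.405-fold H3K4me3. The 350 in shorter runs had 0.811-fold and 1.07-fold, so a low median H3K4me3 was particular to the longer runs. On chromosome 4 from 151500001 to 152700000, 1200 kb held 8087 H3K9me3, 3052 H3K27me3, 2717 H3K4me3 and 9067 secondary MEF H3K9me3 positions. That is 1.85-fold, 0.665-fold, 0.483-fold and 2.31-fold, at a ratio of 2.78 (2.67 to 2.90), and in all 12 windows the secondary MEF fold was above the MEF fold. This run holds 4 of the 5 windows with H3K9me3 at 1.5-fold or more and the lowest H3K27me3, between 0.5-fold and 0.562-fold; the fifth is on chromosome 5 from 129100001.

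The longest such run reached 1-fold only on average and covered 1600 kb of chromosome 5 (125900001 to 127500000). It held 6064 H3K9me3, 2394 H3K27me3, 2222 H3K4me3 and 7662 secondary MEF H3K9me3 positions, or 1.04-fold, 0.391-fold, 0.296-fold and 1.46-fold, at a ratio of 2.66 (2.54 to 2.79). In 9 of its 16 windows H3K9me3 was under 1-fold, and the windows ranged from 0.825-fold to 1.58-fold. A further 900 kb from 128000001 on the same chromosome stood at 1.23-fold H3K9me3 and 0.505-fold H3K27me3. On chromosome 2, 1500 kb from 170400001 to 171900000 held 6479, 2913, 3029 and 7233 positions in the same order of libraries, at 1.19-fold H3K9me3 and 0.508-fold H3K27me3. On chromosome 15, 1000 kb from 86400001 and 800 kb from 87500001 stood at 1.38-fold and 1.49-fold H3K9me3, with H3K27me3 at 0.574-fold and 0.651-fold and secondary MEF H3K9me3 at 2.04-fold and 2.14-fold. On chromosome 4, 1000 kb from 127000001 had 1.53-fold, 0.66-fold and 1.92-fold. In every window of these runs the secondary MEF fold was above the MEF fold. A run on chromosome 9 from 116300001 differed, with H3K4me3 at 1.04-fold, H3K27me3 at 0.819-fold and a secondary MEF fold above the MEF fold in 6 of 8 windows.

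**Figure D3:**
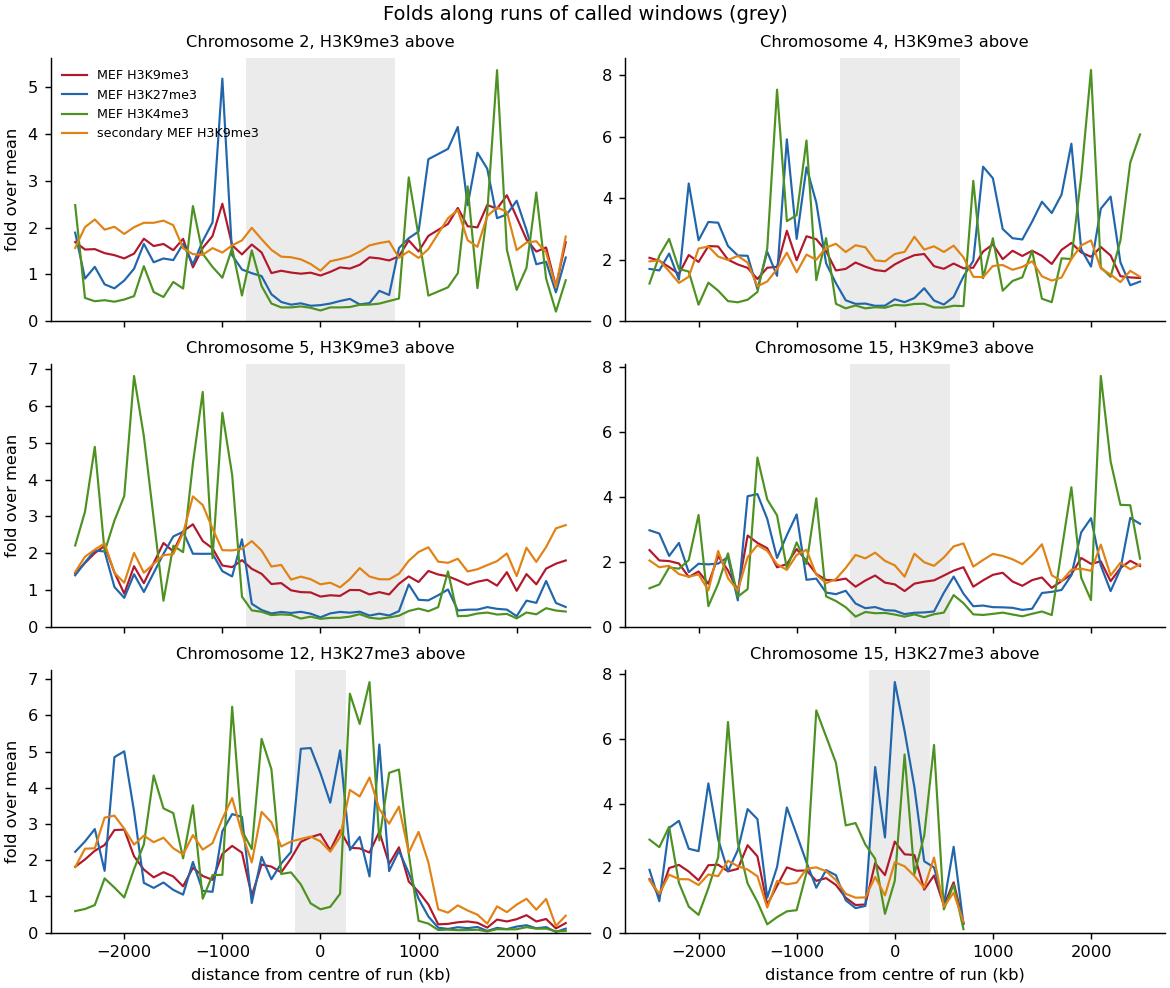
Each panel plots the fold over the library mean in 100 kb windows (y axis) against the distance from the centre of a run in kb (x axis) for 4 libraries, with the run in grey: 4 long runs with H3K9me3 above at 1-fold or more and 2 with H3K27me3 above. On chromosome 4 the run stands at 1.85-fold H3K9me3 and 0.665-fold H3K27me3, with secondary MEF H3K9me3 at 2.31-fold.

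At the edges of these runs the medians of H3K27me3 differed more than those of MEF H3K9me3. Over the edges of the 36 runs of 300 kb or more at 1-fold or more, median MEF H3K9me3 was 1.42-fold in the last window outside and 1.38-fold in the first inside, while H3K27me3 was 1.12-fold and 0.722-fold. H3K4me3 went from 0.565-fold to 0.43-fold. Secondary MEF H3K9me3 had medians between 1.5-fold and 1.63-fold from 1000 kb to 200 kb outside and of 1.73-fold just outside. From the first window to 500 kb inside its medians lay between 1.74-fold and 1.98-fold, in no steady order. They rest on 72 windows at the first and 28 at 500 kb, as shorter runs drop out. Each run is also counted from both edges, so these medians do not show a course within single runs. At the edges of runs with H3K27me3 above of 200 kb or more, H3K27me3 was 1.75-fold outside and 3.85-fold inside, with H3K9me3 at 1.59-fold and 2.20-fold. H3K4me3 was 2.10-fold just outside and 1.38-fold inside, and secondary MEF H3K9me3 1.53-fold and 1.73-fold. The runs were defined from the MEF H3K9me3 and H3K27me3 reads, so only the other 2 libraries are separate from the choice of edges.

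**Figure D4:**
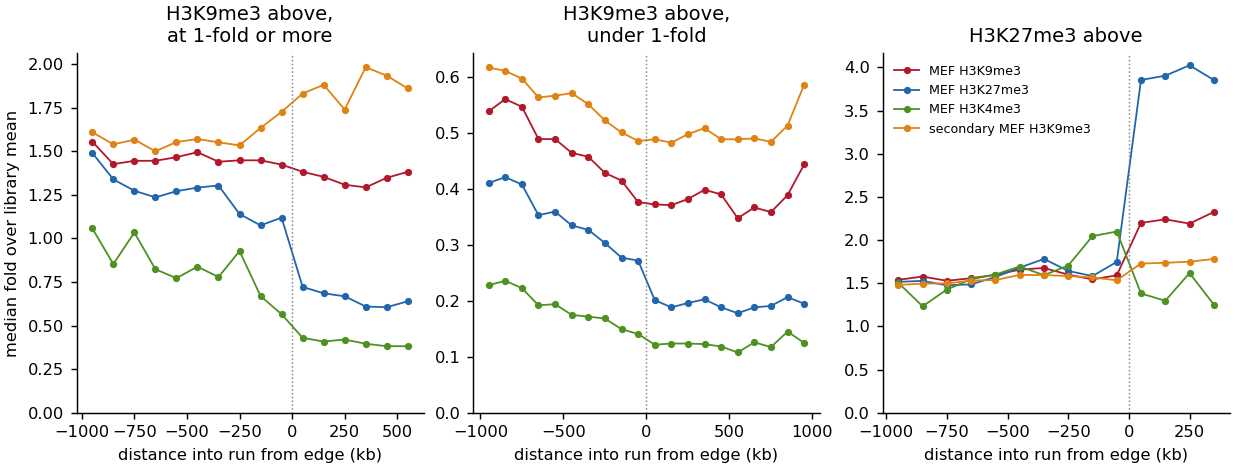
Median fold over the library mean (y axis) in 100 kb windows by distance into a run from its edge in kb (x axis, negative outside), for 4 libraries and 3 kinds of run. In the first panel MEF H3K9me3 stays between 1.29-fold and 1.56-fold across the edge while H3K27me3 is at 1.12-fold outside and 0.722-fold inside.

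Where H3K27me3 exceeded H3K9me3 most, the folds of both over their library means were mostly high. No input library was used, and what part of these folds is a level shared by all 4 libraries was not tested. The lowest ratio was on chromosome 1 from 74800001 to 74900000, with 1152 H3K9me3, 3606 H3K27me3, 684 H3K4me3 and 632 secondary MEF H3K9me3 positions. That is 3.17-fold H3K9me3 and 9.43-fold H3K27me3, a ratio of 0.336 (0.314 to 0.359). Chromosome 19 held windows at 0.346 from 45200001 and at 0.369 from 44800001. On chromosome 11, 200 kb from 96000001 stood at 3.12-fold H3K9me3, 8.42-fold H3K27me3 and 4.38-fold H3K4me3. The remaining windows among the 10 lowest were on chromosomes 3, 4, 11, 13 and 15, at ratios from 0.352 to 0.377. In all 10 the secondary MEF H3K9me3 fold was below the MEF fold. Unlike the others, windows on chromosome 3 from 96400001 and chromosome 4 from 22500001 had H3K9me3 at only 1.31-fold and 1.27-fold, with H3K27me3 at 3.72-fold and 3.38-fold.

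The longest runs with H3K27me3 above covered 600 kb of chromosome 15 from 102500001, at 4.80-fold H3K27me3 and 2.15-fold H3K9me3, and 500 kb each of chromosome 11 from 95900001 (5.85-fold and 2.59-fold), chromosome 12 from 112500001 (4.64-fold and 2.59-fold) and chromosome 7 from 44100001 (4.41-fold and 2.30-fold). A further 13 runs of 400 kb tied for the fifth place, at ratios between 0.43 and 0.617. Leaving out windows that hold a bin high in all 4 libraries, those highest in both marks were called in this direction too. Chromosome 8 from 123900001 held 1388 H3K9me3 and 3309 H3K27me3 positions (3.82-fold and 8.66-fold), and chromosome 11 from 97300001 held 1309 and 3549 (3.6-fold and 9.28-fold). Of the windows left out, the first of chromosome 11 had a ratio of 1.87. Chromosome 17 from 39400001, at 11.5-fold H3K9me3 and 12.9-fold H3K27me3, had a ratio of 0.889.

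The largest ratios in favour of H3K9me3 rested on few reads. The 10 windows ranked first had between 14 and 110 H3K9me3 positions and between 1 and 26 H3K27me3 positions. The first, on chromosome 12 from 22900001, had 14 against 1, for a ratio of 14.7 with an interval from 2.24 to 622. Chromosome 7 held 3 of the 10, and chromosome 12 held 4. Of these 10, 3 had all 20 bins covered. Among windows with H3K9me3 above, 996 of the 2767 low ones lacked a read in at least 1 bin, against 31 of the 551 others and 4304 of all 23382. Reads listed at 2 locations made up 13.7% of positions in the low windows and 5.62% in all windows for H3K9me3, and 13.8% and 4.69% for H3K27me3. Those reads, which the ratio did not use, gave a ratio of 1.78 (1.75 to 1.80) in the low windows, 1.57 (1.54 to 1.61) in the 551 and 0.717 (0.706 to 0.728) where H3K27me3 was above, against 1.21 in all windows. They come from the same libraries and are no replicate.

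With at least 200 positions in both libraries together, a limit set after seeing the data, the largest ratio was 3.90 (2.82 to 5.48) on chromosome 7 from 33400001, from 178 and 48 positions. Chromosome 18 from 37800001 to 37900000 had the combination of high H3K9me3 and a high ratio: 1023 H3K9me3, 312 H3K27me3, 1130 H3K4me3 and 1245 secondary MEF H3K9me3 positions, or 2.81-fold, 0.816-fold, 2.41-fold and 3.80-fold, at a ratio of 3.45 (3.03 to 3.92). Chromosome 15 from 76000001 had the highest H3K9me3 among windows with H3K9me3 above and no bin high in all 4 libraries, at 3.85-fold with H3K27me3 at 2.12-fold, H3K4me3 at 12.5-fold and secondary MEF H3K9me3 at 5.69-fold.

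By chromosome, the ratio of summed reads ran from 0.911 (0.908 to 0.914) on chromosome 11, 0.917 on chromosome 19 and 0.939 on chromosome 2 to 1.07 on chromosomes 3, 10 and 18 and 1.09 (1.08 to 1.09) on chromosome 16, with an SD of 0.0527 over 19 autosomes. These intervals are narrow because they count reads. With scaling by the mean, the median ratio over all windows was 1.19. The median window of an autosome lay above 1 on all 19, between 1.09 and 1.22. Chromosome 11 was the lowest by both measures, at 0.911 in its summed reads and 1.09 in its median window. The chromosomes low in the ratio were rich in all MEF marks. Chromosome 11 had means of 1.40-fold H3K27me3, 1.54-fold H3K4me3 and 1.28-fold H3K9me3, while chromosome 16 had 0.813-fold, 0.861-fold and 0.883-fold. Over the 19 autosomes the ratio had a correlation of -0.91 with mean H3K27me3 and of -0.83 with mean H3K9me3, which are both part of the ratio. With mean H3K4me3 it was -0.79, as a description. Chromosome 11 had 8.03% of its windows with H3K27me3 above, against 4.22% over all autosomes, and chromosome 16 had 1.48%.

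Calls in favour of H3K9me3 were placed differently. Chromosome 7 had the highest share, 22.9% of 1294 windows against 14.2% of all windows, although its summed ratio was 0.978, and 249 of its 296 such windows were low in both marks. Windows with H3K9me3 above at 1-fold or more made up 5.01% of chromosome 5, 4.09% of chromosome 15 and 3.63% of chromosome 7. They made up 2.36% of all windows and 0.981% of chromosome 14. In 10 Mb segments the share with H3K9me3 above had a median of 13.0% and reached 52% on chromosome 1 from 110000001, where none of the 52 windows reached 1-fold. On chromosome 2 from 170000001, in contrast, 24 of 26 such windows did. Both directions met on chromosome 4 from 150000001, where 12 of 50 windows had H3K9me3 above, all at 1-fold or more, and 10 had H3K27me3 above.

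**Figure D5:**
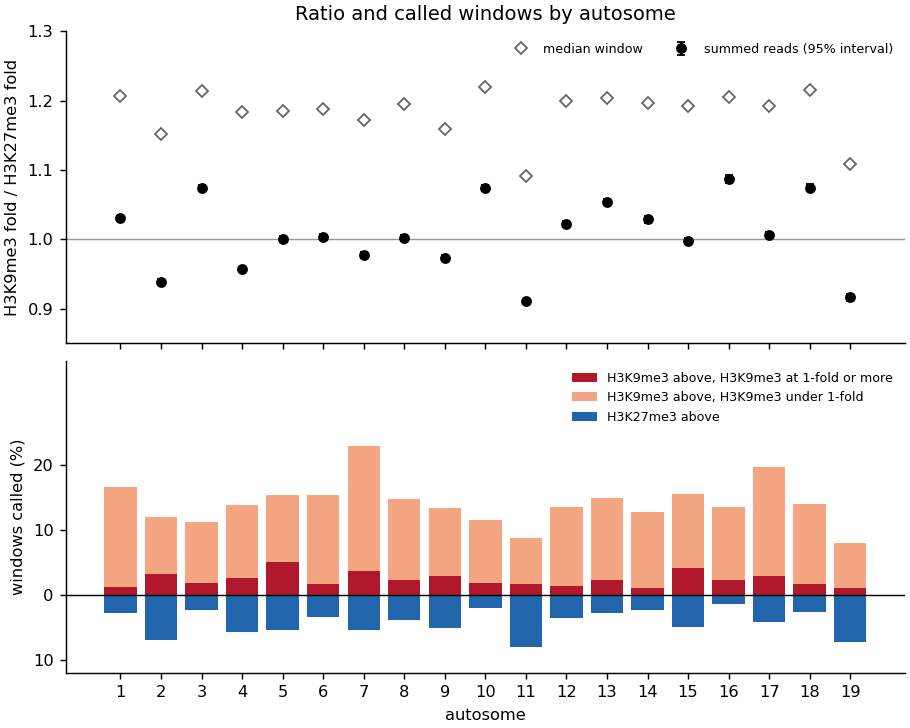
Top, the ratio of H3K9me3 to H3K27me3 folds (y axis) by autosome (x axis) from summed reads, with 95% intervals smaller than the points, and for the median window. Bottom, the percent of windows called with H3K9me3 above (upward, split by its level) and with H3K27me3 above (downward); chromosome 7 has the most of the first, 22.9%, and chromosome 11 the most of the second, 8.03%.

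The ratio also differed along the chromosomes. Each autosome was cut into 10 equal stretches. In the first and the last of them mean H3K27me3 was 0.746-fold and 1.39-fold and mean H3K9me3 0.819-fold and 1.33-fold. Mean H3K4me3 was 0.807-fold and 1.34-fold, and mean secondary MEF H3K9me3 0.826-fold and 1.35-fold. All 4 libraries were thus denser toward the distal end, and the summed ratio was 1.10 and 0.956. In the stretches between, the summed ratio lay between 0.973 and 1.02. The share of windows with H3K27me3 above was 1.95% in the first stretch and 7.14% in the last. The share with H3K9me3 above differed less between the ends, at 15.8% and 13.8%. It was highest in stretches 2 and 6, at 18.3% and 17.6%. In the first 5 Mb after the start of coverage, next to the centromere in mouse, the summed ratio exceeded that of the whole chromosome on 17 of 19 autosomes (median 1.13 times), or on 16 without windows holding bins high in all 4 libraries. By the median window this held on 13 autosomes. There H3K9me3 was at a median of 0.739-fold and H3K27me3 at 0.602-fold, so neither mark was high in the uniquely placed reads. In the last 5 Mb the summed ratio was above that of the chromosome on 9 of 19.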

How the data were processed

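The authors deposited signed genome positions of aligned reads (a minus sign for the minus strand) in 1 list per library, with no level or other normalized value beside them. All levels here were computed from these positions. Per the file headers, the aligner was Bowtie on mm8 (-n 2, -l 36, -e 70, -k 2, -m 2); its version is not given in the sources used here. Per the labels' protocols, chromatin of 500 bp mean length was amplified over 18 cycles and selected between 150 and 350 bp.

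Autosomal reads with 1 location were kept 1 time per position and strand, moved 75 bp from the 5′ end (read length of 36 assumed) and counted in bins of 5 kb and windows of 100 kb. Ratios carry exact Clopper-Pearson intervals at the 95% level, and calls used 0.1% error. No input library was used here. Calls were tested on simulated data, drawn with counting error only, with a set ratio in chosen windows and a ratio of 1 in all others. The simulated ratios lack the spread of the real ones and their dependence on level, so the test does not cover calls under these. Python 3.11.15, numpy 2.4.6 and scipy 1.17.1 were used.

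Regions named were the 10 most extreme ratios in each direction and the 5 windows highest in both marks, all without bins high in all 4 libraries. Further ones were the 5 longest runs, the 3 highest and 3 lowest autosomes, and the 5 windows with H3K9me3 at 1.5-fold and lowest H3K27me3. The others were chosen after their values were seen. Windows, thresholds and lists were chosen with earlier results of these data known.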

Additional observations from a re-analysis of the deposited data

How the results depend on the processing

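Of 187 values recomputed under alternatives, 156 stayed within 1.5 times the value reported and, for chromosome ratios, on the same side of 1. Of these, 8 were equal to it. The SD and correlation cannot change with the call fold or the scaling. The limit is wide for some values. A correlation of 0.96 cannot rise by that factor, and the ratios of autosomes have an SD of only 0.0527. Windows with H3K9me3 above made up 24.6% at a call fold lowered below 1.5, 4.05% at a fold of 2, 4.58% with scaling by the median, 8.90% on the plus strand only and 9.01% on the minus strand only. Those with H3K27me3 above made up 9.69%, 0.787% and 10.0% under the first 3. Those with H3K9me3 above at 1-fold or more made up 9.21%, 0.432% and 0.821% under the first 3, and 3.75% and 1.49% in windows of 50 kb and 200 kb.

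Against the line through the log2 folds, added after seeing the data, 360 windows (1.54%) lay above and 305 (1.3%) below, and 336 and 177 of them were called by the ratio; 264 windows (1.13%) lay above at 1-fold or more. Secondary MEF H3K9me3 then had medians of 1.74-fold above and 0.636-fold below, and H3K4me3 had 0.416-fold and 0.529-fold. The secondary MEF median in all windows with H3K9me3 above was 0.541-fold, with 0.834-fold at the lowered fold and 0.848-fold in windows of 50 kb. Median H3K4me3 in these was 0.154-fold, and 0.348-fold and 0.10-fold at the lowered fold and at 2. It was 0.302-fold in windows of 50 kb, 0.355-fold without bins at 2-fold H3K4me3, and 0.272-fold and 0.276-fold on the plus and minus strand. With scaling by the median it was 0.251-fold over the median. Under the same scaling, H3K4me3 where H3K27me3 was above had 2.46-fold over the median. Both values are in another unit than folds over the mean, since the median window stood at 0.501-fold H3K4me3 over the mean. The ratio of chromosome 11 was 1.09 by its median window, where all windows had a median of 1.19, against 0.911 from summed reads. It was the lowest of the 19 autosomes by both. Apart from this change of unit, the cause of these shifts was not tested.

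Of 2067 windows with H3K9me3 above on the plus strand, 901 were called on the minus strand too, and 2053 had a ratio above 1 there, as had 72.3% of all windows; the minus strand call was made for 544 of the 1440 with H3K9me3 under 1-fold and 357 of the other 627; for H3K27me3 above, 827 of 1037 were called on both. A single strand holds fewer reads than both, and what part of these differences comes from depth was not tested. Not all shares fell on a single strand. Windows with H3K27me3 above made up 4.46% on the plus and 4.43% on the minus strand, against 4.22% with both. Those with H3K9me3 above at 1-fold or more made up 2.74% and 2.88%, against 2.36%. No paired analysis was possible because each group holds 1 library.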
